A study of Mus musculus with 272 samples.

Results

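RNA in the heavy sucrose gradient fractions of mouse 2-cell embryos was compared with that of 4-cell embryos. Heavy here means fractions 6 to 10 of the 10 fractions of a gradient, the side on which transcripts carrying many ribosomes lie by convention. In the labels the fractions have numbers only, and which of them are heavy is taken from that convention. Each stage had 3 gradients, lettered A to C, and each was loaded with the lysate of about 100 embryos that held cycloheximide, a drug that stalls ribosomes on their transcripts. The comparison therefore used 30 of the 272 libraries of the series, 5 for each of 6 gradients. Pools of 20 whole embryos, 4 per stage, gave transcriptome libraries that were set beside them. All embryos were untreated as far as the labels say, and strain, age of the animals and any sorting of embryos are not given in the sources used here. The labels do not say what separates the gradients of a stage, so p-values measure the spread between these samples. For each gradient the CPM of a gene, its reads scaled to a fixed library total, were averaged over the 5 heavy fractions, and this heavy mean is the value given below for each gradient.

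At the 2-cell stage the mouse embryo switches on its own genome in earnest while RNAs laid down in the oocyte are being destroyed. A short-lived set of genes and repeats, marked by the Zscan4 family, is transcribed at that stage and silenced again as the embryo cleaves. By the 4-cell stage most transcripts are of embryonic origin, and the embryo begins to build new ribosomes. A transcript that is loaded with ribosomes sediments deep in a sucrose gradient, so its level in the heavy fractions depends both on how much of it there is and on how many ribosomes it carries.

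The heavy fractions held 33.6 to 72.8 M reads per gradient. The 4-cell gradient A stood apart, with 33.6 M reads against 54 to 72.8 M in the other gradients and only 0.996 M in its fraction 6. On average 8.80% of its heavy reads were 18S ribosomal RNA, against 2.34 to 3.85% in the others. It had 5321 genes with a heavy mean of at least 1 CPM, against 7218 to 8371. Single heavy fractions detected 2021 to 6187 genes at 1 CPM or more. Pearson's r across genes between gradients of a stage was 0.61 to 0.65 at the 2-cell and 0.55 to 0.68 at the 4-cell stage, which describes the gradients, since genes are not replicates. A value of 0 in a single fraction can thus be a missed transcript.

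Of 8390 genes with a heavy mean of at least 1 CPM in 3 of the 6 gradients, 974 (11.6%) were called higher and 1472 (17.5%) lower in 4-cell embryos, 29.2% in all. A gene was called when limma's moderated test gave a Benjamini-Hochberg adjusted p under 0.05 and a change of at least 1 on the log2(CPM + 1) scale. All changes below are 4-cell minus 2-cell on that scale, where the added 1 shrinks the change of genes at low levels. The groups of 3 gradients did not overlap for 3753 genes (44.7%). Genes named below for the size of their change were picked on these values, so their lack of overlap is no separate evidence. The median change of all genes tested was -0.52, and quantile normalization moved it by 0.71, to 0.20, so a list's median is to be set against that of all genes. With that scaling, over 8856 genes, 1291 were called higher and 1318 lower, a share of 49.5% higher against 39.8% without it. Without the 4-cell gradient A, 991 genes were called higher and 1237 lower and the median was -0.08. edgeR, run on reads recovered from the CPM steps, called 465 higher and 661 lower, and DESeq2 on the same reads 1517 and 1846. Among the 2446 calls, 1142 held with each of the 6 gradients left out in turn. CPM is a share of the library, so less of a transcript per embryo and more of everything else cannot be told apart, nor can fewer cells with a transcript and less of it per cell.

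**Figure D1:**
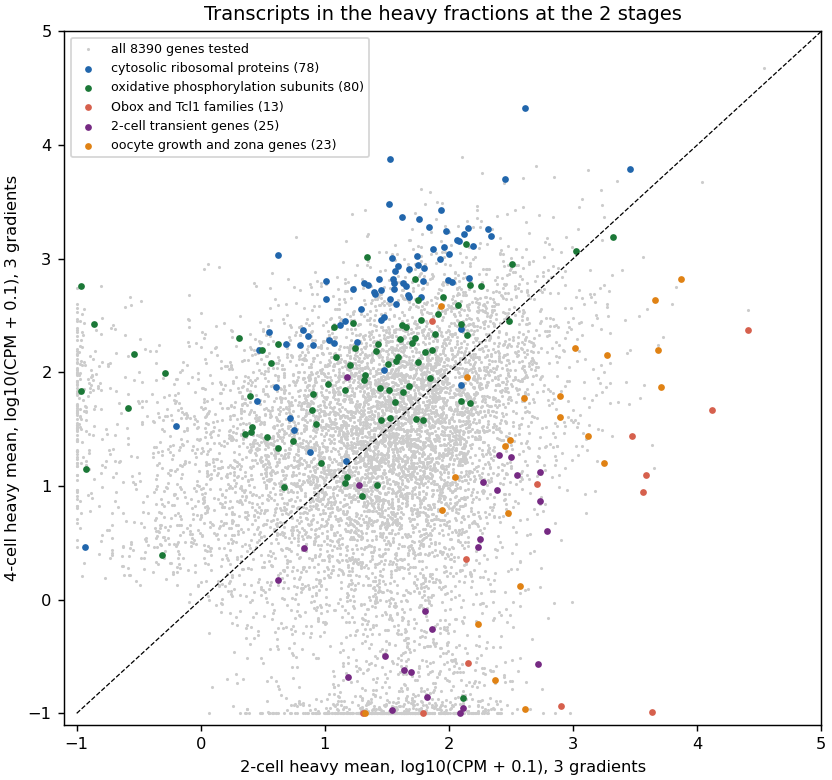
Mean over 3 gradients of the heavy CPM of each of 8390 genes, 2-cell on the x axis and 4-cell on the y axis, both as log10(CPM + 0.1); the dashed line marks equal levels. Cytosolic ribosomal protein genes (blue, 78) lie above the line except for 1 gene that lies below it, and the Obox and Tcl1 families (red, 13) lie far below it except for Obox6.

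Sequences are shown for the families at both ends of the change. Ribosomal protein genes carry at their transcription start a run of C and T, the terminal oligopyrimidine motif, through which growth signalling sets how well their transcripts are translated. For 4 of the ribosomal protein genes that rose, the window runs from 40 bases before the annotated start to 20 bases from it, 5′ to 3′, from RefSeq on GRCm38.p6. Capitals mark the run of C and T that begins at the annotated start. The 4 were taken only from genes whose window has the motif as counted below, so all 4 show it by choice.
Rpl38 (chr11:114668540-114668599, plus strand): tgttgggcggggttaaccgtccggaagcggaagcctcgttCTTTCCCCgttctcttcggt
Rpl14 (chr9:120571477-120571536, plus strand): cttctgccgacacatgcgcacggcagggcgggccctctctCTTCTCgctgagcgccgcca
Rps27 (chr3:90213629-90213688, minus strand): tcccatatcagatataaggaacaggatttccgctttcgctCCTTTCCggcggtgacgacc
Rpl35a (chr16:33056442-33056501, plus strand): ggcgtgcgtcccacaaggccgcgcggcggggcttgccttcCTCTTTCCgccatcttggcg
A C at the annotated start followed by 4 bases that are each C or T, on the transcribed strand, was found in 14 of the 57 cytosolic ribosomal protein genes matched in the RefSeq table, or 24.6%. The list has 78 genes. The same letters stood at the start of 3.11% of 6554 matched genes among those tested and of 2.51% of all 32851 windows. A start annotated a few bases off would hide the motif, and a match is a description of these letters only. Mitochondrial ribosomal protein genes, whose products also form ribosomes, had the motif in 0 of 68 matched windows.

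The Tcl1b genes are a cluster of near-identical copies on chromosome 12 that gave 3 of the 8 largest falls. Their windows run from 90 bases before the annotated start to 20 bases from it, from the same source, and capitals mark the longest run that all 3 share, 25 bases.
Tcl1b1 (chr12:105159614-105159723, plus strand): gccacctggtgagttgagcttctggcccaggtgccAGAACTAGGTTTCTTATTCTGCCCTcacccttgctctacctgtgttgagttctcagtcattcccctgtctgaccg
Tcl1b4 (chr12:105202305-105202414, plus strand): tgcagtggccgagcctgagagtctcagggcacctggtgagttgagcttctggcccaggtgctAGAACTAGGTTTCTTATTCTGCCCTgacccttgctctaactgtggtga
Tcl1b5 (chr12:105176254-105176363, plus strand): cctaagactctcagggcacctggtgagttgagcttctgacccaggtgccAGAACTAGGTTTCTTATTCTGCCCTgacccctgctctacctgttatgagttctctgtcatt
The shared run lies before the annotated start in each of the 3 windows. Reads of copies this alike could be split between them by the counting, so single members of the Tcl1b, Obox, Nlrp, Zscan4, Eif1ad, Eif4a3l and Usp17l families are uncertain.

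Ribosomal protein transcripts had 70 of 78 members called higher, the highest share among the lists with more than 1 member tested. They made up 7573, 7568 and 6616 CPM of the 2-cell heavy means and 101207, 100861 and 79080 CPM of the 4-cell means, for gradients A, B and C. The sums of the stages did not overlap and differed by more than 10 times in their means, 7252 ± 551.5 and 93716 ± 12676 CPM (SD, n = 3). None of the 78 was called lower, where 11.6% of all genes tested in the heavy fractions were called higher and 17.5% lower. The median change was 4.12 against -0.52 over all genes. Leaving out the 4-cell gradient A left 69 called, edgeR called 52, and 57 held with each gradient left out. In whole embryos 78 of 78 were called higher with a median of 4.73, where 34.8% of 12969 genes were called higher and 35.8% lower, with a median of 0.05. Transcripts of this class have processed pseudogene copies that could share their reads.

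Rpl41, which encodes the smallest protein of the large subunit, had the highest mean level among them. Its heavy mean was 462, 410 and 352 CPM in the 2-cell gradients and 19886, 28760 and 14798 CPM in the 4-cell gradients. All 4-cell gradients lay far above all 2-cell gradients, and the change was 5.65 (SE 0.25, limma adjusted p 0.000197). In whole embryos it went from 521 ± 96.9 to 9850 ± 1547 CPM (SD, n = 4), a smaller rise, and the difference of the changes passed the test (1.40, limma adjusted p 0.00641). Rpl38, another large-subunit protein, had the largest called rise, from 2.57, 4.26 and 5.49 CPM to 1839, 775 and 642 CPM (change 7.62, SE 0.78, limma adjusted p 0.0037). Among the 8 genes of the list that were not called was Rpl4, with 140, 99.4 and 133 CPM in 2-cell and 133, 41.8 and 57.9 CPM in 4-cell gradients, which overlap. Rpl4 and Rps4x were chosen after their values were seen. Its transcriptome level rose from 126 ± 21.1 to 1473 ± 98.6 CPM, and it was 1 of 12 ribosomal protein genes whose heavy change fell short of the transcriptome change, against 1, Rpl41, that went beyond it. Over 13895 genes 7.84% fell short and 7.44% went beyond in that test. In Rps4x a single gradient set the mean, with 21582 CPM in the 4-cell gradient A against 553 and 549 CPM in B and C, and its call was lost without the 2-cell gradient A or B.

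In other lists of ribosome production and energy metabolism most members were not called. Over all genes tested 11.6% were called higher and 17.5% lower. Nucleolar ribosome assembly genes had 9 of 36 called higher and none lower, with a median change of 2.52, and 5 higher in edgeR. Nhp2, a protein of the particles that modify ribosomal RNA, went from 187, 219 and 147 CPM to 11460, 3340 and 2279 CPM (change 4.60, SE 0.58, limma adjusted p 0.00526). Every 4-cell gradient lay above every 2-cell gradient, with gradient A highest. Noc2l, an assembly factor of the large subunit, had the largest rise of the list, from 0, 9.25 and 0 CPM to 39.5, 224 and 450 CPM (change 6.21, SE 1.46, limma adjusted p 0.0201). It lost its call without the 2-cell gradient A or C and without the 4-cell gradient B or C. Mitochondrial ribosomal proteins had 16 of 73 called higher and 2 lower, with a median of 1.97, against 7 and 0 in edgeR. Mrpl27 rose from 0.0323, 0 and 0.0196 CPM, at the floor of 3 reads per gradient, to 53.6, 52.7 and 46.4 CPM, at least 589-fold higher. Fold bounds here and below compare the mean of 3 gradients with that floor, so single gradients can lie under them. Mrps27, in contrast, fell from 62.5, 119 and 95.4 CPM to 0.107, 2.00 and 0.045 CPM (change -5.89, SE 1.02, limma adjusted p 0.00814), while its transcriptome level was 25.1 ± 4.32 and 31.1 ± 7.58 CPM (SD, n = 4). Its mean over the light fractions, 1 to 5, fell too, from 144 to 1.17 CPM, and the heavy-to-light change was 0.50 and not called.

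Subunits of the respiratory chain and ATP synthase, encoded in the nucleus, had 29 of 80 called higher and 1 lower, with a median of 1.96. Among all genes tested 11.6% were called higher and 17.5% lower. For the subunits, edgeR called 11 higher and 1 lower. In whole embryos 71 of the 80 were called higher, against 34.8% of all genes. Uqcrc1, a core subunit of complex III, had the largest rise of all genes called by both limma and edgeR with a mean of at least 100 CPM in 1 stage. It was at the floor in 2-cell gradients, with 0.0227, 0 and 0 CPM, and reached 668, 566 and 472 CPM in 4-cell gradients, at least 6585-fold higher. Its transcriptome level went from 3.04 ± 1.42 to 159 ± 16.2 CPM, and the heavy change exceeded that by 3.76 (limma adjusted p 0.000649). The 1 fall was that of Sdha, the flavoprotein of complex II, from 129, 84.6 and 176 CPM to 0.0561, 0 and 0.0504 CPM (change -6.92, SE 0.95, limma adjusted p 0.00585). Its transcriptome level was 66.0 ± 11.5 and 34.1 ± 6.12 CPM, so the heavy fractions fell further than the whole embryo (difference -5.98, limma adjusted p 2.5e-05). Its light mean fell too, from 76.7 to 7.12 CPM, and the heavy-to-light change of -2.67 was not called. Cox8a, a small subunit of complex IV and the most abundant of the list, was not called, with 2102, 2347 and 1883 CPM against 1158, 2224 and 1220 CPM.

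Of 37 translation initiation factors 7 were called higher and 2 lower (median 1.24). Elongation and release factors had 3 of 10 higher and 1 lower (median 1.57). Over all genes tested 11.6% were called higher and 17.5% lower. edgeR called 5 initiation and 1 elongation factor higher and none lower, and without the 4-cell gradient A 5 elongation factors were higher. Eif5a, which helps ribosomes through hard-to-join residues, had 1189, 1784 and 1006 CPM in 2-cell and 3206, 7602 and 7217 CPM in 4-cell gradients (change 2.12, SE 0.37, limma adjusted p 0.0084). The stages did not overlap. In whole embryos it stood at 1045 ± 346 and 1542 ± 129 CPM (SD, n = 4), and the heavy change went beyond that by 1.51 (limma adjusted p 0.0308). Eif2b3, a subunit of the exchange factor for eIF2, rose from the floor to 68.0, 76.2 and 135 CPM, at least 1078-fold higher. Eif2s3x, a subunit of eIF2 itself, went from 79.7, 39.8 and 1.90 CPM to the floor of 3 reads. Its stage mean was at least 77.3-fold lower, a bound that does not extend to single gradients. Its call held in 1 of 6 leave-one-out fits, that without the 2-cell gradient C.

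Eef2, the factor that moves the ribosome along, rose from 298, 238 and 231 CPM to 878, 1066 and 1364 CPM (change 2.09, SE 0.33, limma adjusted p 0.00719). Its median over the heavy fractions gave the opposite sign (-0.12, limma adjusted p 0.96). The transcriptome rise was larger, from 37.4 ± 10.5 to 744 ± 150 CPM, and the heavy change stayed behind it (difference -2.20, limma adjusted p 0.00193). Eef2k, the kinase that inhibits eEF2, fell from 1558, 782 and 1374 CPM to 0.0508, 0 and 25.3 CPM (change -8.62, SE 1.38, limma adjusted p 0.00722). For both genes the gradients of the stages did not overlap.

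Aminoacyl-tRNA synthetases, the enzymes that charge tRNAs, did not rise in the heavy fractions as a list. Of the 17 tested, 1 was called higher and 2 lower, with a median of -0.47, which became 0.45 under quantile normalization and 0.01 without the 4-cell gradient A. In whole embryos 17 of 22 were called higher and 1 lower, with a median of 2.27, against 34.8% and 35.8% of all genes and a median of 0.05. For 7 of 22 the heavy change was called below the transcriptome change and for none above it, where 7.84% of the 13895 genes in that comparison were called below and 7.44% above. Farsb, the beta subunit of the phenylalanine enzyme, fell from 228, 81.1 and 346 CPM to 0.512, 2.65 and 0.135 CPM (change -6.67, SE 1.08, limma adjusted p 0.00727). Its partner subunit Farsa had 199, 49.4 and 78.3 CPM in 2-cell and 202, 187 and 256 CPM in 4-cell gradients and was not called.

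Proteasome subunits had 5 of 35 called higher (median 1.34), subunits of the TRiC chaperonin 1 of 8 (1.35), and splicing factors 6 of 31 (0.39). None was lower in any of the 3 lists. Over all genes tested in the heavy fractions 11.6% were called higher and 17.5% lower. The median of the splicing factors was 0.93 without the 4-cell gradient A and 0.82 under quantile normalization. In whole embryos 30 of 35, 8 of 8 and 25 of 33 were called higher, again against 34.8% of all genes. With each gradient left out in turn, 1 of the 5, 0 of the 1 and 2 of the 6 calls held throughout. Psmc4, an ATPase of the proteasome cap, went from 0.318, 0 and 19.7 CPM to 159, 117 and 121 CPM (change 5.46, SE 1.38, limma adjusted p 0.0258), and its call held only without the 2-cell gradient C. Cct6a of TRiC went from 3.72, 0.576 and 2.86 CPM to 67.7, 20.6 and 44.7 CPM, and lost its call in each of the 6 leave-one-out fits. Srsf6, a splicing regulator, had 297, 196 and 140 CPM in 4-cell gradients against 0.036, 0.0247 and 32.1 CPM, and its call too held only without the 2-cell gradient C.

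**Figure D2:**
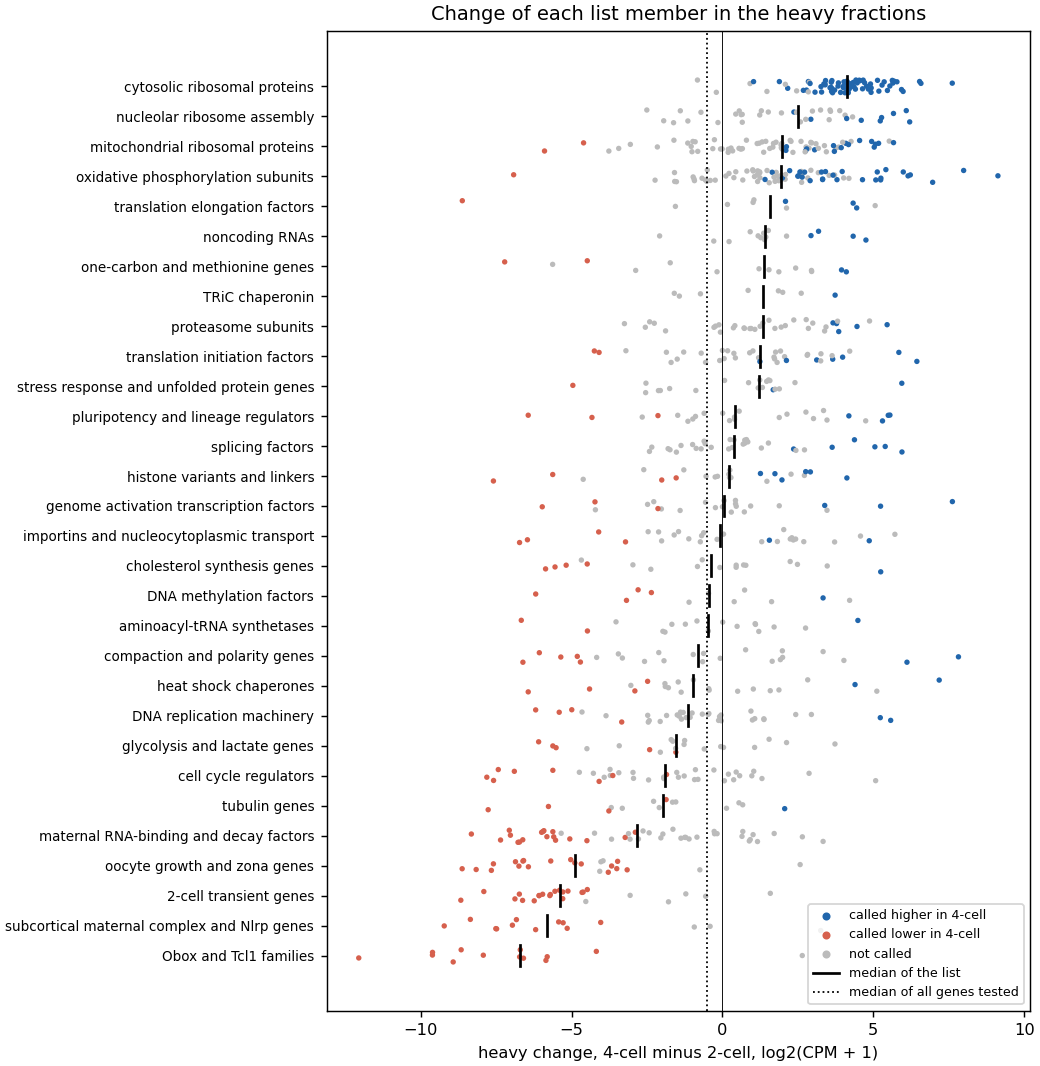
Heavy change of each tested member of the gene lists, 4-cell minus 2-cell in log2(CPM + 1), with the lists ordered by their median (black bar); blue points were called higher, red lower, grey not called. The dotted line is the median of all genes tested, -0.52; the list medians run from -6.72 for the Obox and Tcl1 families to 4.12 for cytosolic ribosomal proteins.

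The falls were led by oocyte and 2-cell gene families. The Obox homeobox genes and the Tcl1 family, expressed in the oocyte and early embryo, summed to 50545, 65393 and 49621 CPM in the 2-cell gradients and to 323, 865 and 692 CPM in the 4-cell gradients. Of 13 tested 12 were called lower and none higher, with a median change of -6.72, where 17.5% and 11.6% of all genes were called. With each gradient left out, 10 of the 12 held. Tcl1, a coactivator of the kinase Akt, accounted for much of that sum. It had 22074, 34279 and 19883 CPM in 2-cell gradients and 184, 258 and 268 CPM in 4-cell gradients (change -6.72, SE 0.25, limma adjusted p 9.72e-05). Its whole-embryo level fell further, from 13388 ± 2524 to 14.4 ± 4.29 CPM (SD, n = 4), and the difference of the changes was called (3.07, limma adjusted p 0.000121). Tcl1b4 went from 4888, 4556 and 3421 CPM to the floor, at least 8200-fold lower. Tcl1b1, the most abundant of its cluster, had 12745, 14159 and 12712 CPM in 2-cell gradients and 0, 78.4 and 60.0 CPM in 4-cell gradients (change -9.61, SE 1.56, limma adjusted p 0.00727). Obox6, the 1 tested member that was not called, had 5.58, 143 and 70.8 CPM against 136, 431 and 281 CPM.

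Of 25 genes transient at the 2-cell stage 19 were called lower and none higher (median -5.40), where 17.5% and 11.6% of all genes were called. The 10 markers of that stage are all among these 25, and 9 of them were lower. edgeR called 6 of the 25 and 3 of the 10. The markers summed to 2270, 1811 and 1459 CPM in 2-cell and 0.273, 76.2 and 64.2 CPM in 4-cell gradients. Zscan4d, a zinc finger gene of telomere maintenance, fell from 782, 522 and 250 CPM to 0, 0.505 and 0.0135 CPM (change -8.67, SE 0.96, limma adjusted p 0.00485). Eif4a3l2, an embryonic copy of a helicase gene, fell from 698, 532 and 609 CPM to 0.0519, 11.4 and 0.26 CPM (change -7.91, SE 1.17, limma adjusted p 0.0066). In both genes the highest 4-cell gradient lay far below the lowest 2-cell gradient. Pramel6, not called and chosen after its values were seen, was the 1 gene of the list with a positive change, 1.59.

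Maternal genes fell as well. Among genes of the subcortical maternal complex and the Nlrp family, proteins stored at the oocyte cortex, 11 of 14 were called lower (median -5.81). Among oocyte growth and zona genes 18 of 23 were lower (median -4.89), with none higher in either list. These shares stand against 17.5% lower and 11.6% higher over all genes. Under quantile normalization 1 gene of the first list was called higher, and in DESeq2 1 of the second. edgeR called 6 and 10 lower. Zbed3, a member of that complex, was the most abundant, with 26147, 26312 and 24691 CPM in 2-cell and 442, 322 and 305 CPM in 4-cell gradients (change -6.19, SE 0.17, limma adjusted p 1.75e-05). Padi6, Tle6 and Khdc3 of the same complex were not called, with changes of -0.93, -0.41 and 3.26. Padi6 had 370, 794 and 460 CPM in 2-cell and 221, 271 and 322 CPM in 4-cell gradients. Nobox, a transcription factor of oocyte growth, went from 305, 406 and 506 CPM to the floor, at least 775-fold lower. Omt2b, an oocyte gene, kept more, with 8208, 7713 and 6231 CPM against 519, 918 and 568 CPM (change -3.50, SE 0.25, limma adjusted p 0.00146). In whole embryos Omt2b fell from 11886 ± 916 to 109 ± 13.6 CPM, and the heavy change was smaller by 3.27 (limma adjusted p 1.14e-05).

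RNA-binding and decay factors of the maternal programme had 18 of 46 called lower and none higher (median -2.84), with 7 lower in edgeR. DESeq2 called 20 lower and 2 higher. Btg4, the adaptor that brings deadenylase to maternal transcripts, fell from 2726, 3216 and 4359 CPM to 80.4, 3.09 and 96.2 CPM (change -6.72, SE 1.18, limma adjusted p 0.00837). Pabpc1l, the embryonic poly(A)-binding protein, fell from 596, 511 and 135 CPM to 0.21, 0.0571 and 0 CPM (change -8.32, SE 1.03, limma adjusted p 0.00526). Of 36 cell cycle regulators 8 were lower and none higher (median -1.90), where 17.5% and 11.6% of all genes were called. In edgeR 4 were lower, and in DESeq2 11 were lower and 1 higher. Pttg1, the inhibitor of separase, had 5319, 9408 and 5379 CPM in 2-cell and 292, 750 and 640 CPM in 4-cell gradients (change -3.63, SE 0.40, limma adjusted p 0.00485). Fbxo43, which holds back the anaphase-promoting complex in meiosis, fell from 54.4, 861 and 485 CPM to 1.07, 0 and 0 CPM (change -7.81, SE 1.30, limma adjusted p 0.0076). None of the 4 genes overlapped between the stages, although the 2-cell gradient A had far less Fbxo43 than the others.

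**Figure D3:**
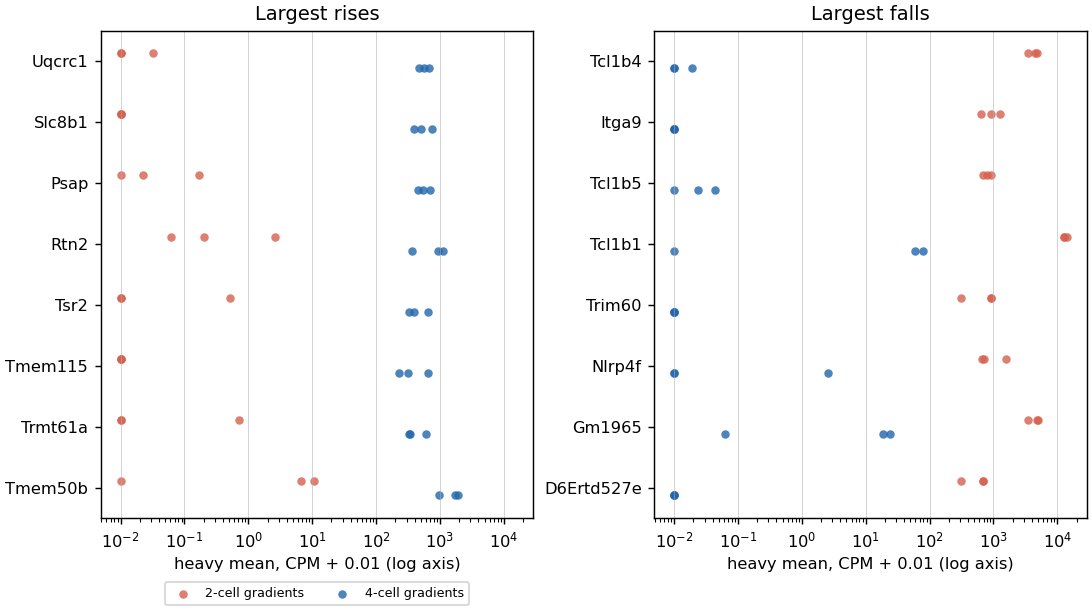
Heavy mean of each gradient, as CPM + 0.01 on a log axis, for the 8 genes with the largest rises (left) and falls (right) that both limma and edgeR called; red points are 2-cell and blue points 4-cell gradients. No 2-cell point overlaps a 4-cell point. The genes were picked by size of change in these same gradients, so this is no separate evidence, and 44.7% of all genes tested did not overlap. Slc8b1 and Tmem115 in 2-cell and Itga9, Trim60 and D6Ertd527e in 4-cell gradients had 0 in all 3.

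The largest single changes lay partly outside these lists. Psap, the precursor of the lysosomal saposins, rose from 0.159, 0.0123 and 0 CPM to 461, 547 and 707 CPM (change 9.06, SE 0.88, limma adjusted p 0.00358). Slc8b1, a mitochondrial sodium-calcium exchanger, was at 0 in every 2-cell gradient and at 755, 506 and 398 CPM in 4-cell gradients, at least 6404-fold higher. Tmem50b, a membrane protein, reached the highest level among these, with 1723, 959 and 1934 CPM against 10.6, 6.60 and 0 CPM (change 8.37, SE 1.06, limma adjusted p 0.00526). Tsr2, a chaperone of a small-subunit ribosomal protein, Trmt61a, a tRNA methyltransferase, Tmem115 and Rtn2 completed the rises with Uqcrc1, with changes of 8.41 (Trmt61a) to 8.78 (Rtn2) and 0 to 2.62 CPM in any 2-cell gradient.

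On the other side, Itga9, an integrin subunit, had 642, 902 and 1264 CPM in 2-cell gradients and 0 in all 4-cell gradients, at least 1790-fold lower. D6Ertd527e and Trim60 were likewise at 0 in all 4-cell gradients, from 696, 311 and 696 CPM and from 904, 311 and 932 CPM. Gm1965 fell from 4865, 3484 and 5074 CPM to 0.0519, 23.9 and 18.7 CPM (change -9.10, SE 1.20, limma adjusted p 0.00555). Nlrp4f, of the Nlrp family, had 674, 706 and 1583 CPM against 0, 0 and 2.58 CPM. These falls had counterparts in whole embryos, where Itga9 went from 721 ± 184 to 1.54 ± 0.634 CPM and Gm1965 from 3927 ± 349 to 2.74 ± 2.16 CPM (SD, n = 4).

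Regulators of transcription and lineage were called at about the share of all genes, 11.6% higher and 17.5% lower. Of 23 tested transcription factors tied to genome activation 3 rose and 3 fell (median 0.05), and of 25 lineage regulators 4 rose and 3 fell (median 0.40). Without the 4-cell gradient A these were 1 and 2 (median 0.07), and 4 and 1 (median 1.5). Under quantile normalization the medians were 0.49 and 1.23. Tead4, the factor that later directs trophectoderm, rose from the floor to 162, 141 and 339 CPM, at least 2479-fold higher. In whole embryos it went from 2.10 ± 0.464 to 77.4 ± 13.8 CPM (SD, n = 4), and the heavy change exceeded that by 2.96 (limma adjusted p 0.00576). Tbp, the TATA-binding protein, fell from 106, 262 and 154 CPM to 4.30, 0.444 and 1.31 CPM (change -5.97, SE 1.02, limma adjusted p 0.00794), against 281 ± 18.5 and 112 ± 19.9 CPM in whole embryos. Klf17, the most abundant of both lists, had 1299, 573 and 983 CPM in 2-cell and 142, 137 and 437 CPM in 4-cell gradients (change -2.14, SE 0.58, limma adjusted p 0.0328), and its call held only without the 4-cell gradient C. Elf3, an epithelial factor, fell from 328, 107 and 111 CPM to 2.43, 0.206 and 0.484 CPM. Sox21 rose from 0 in all 2-cell gradients to 240, 10.5 and 36.0 CPM, and lost its call without any 1 of the 2-cell gradients. Its stage mean was at least 1106-fold higher, a bound set mostly by gradient A that B and C alone do not reach. Pou5f1, the pluripotency factor Oct4, was not called, with 269, 421 and 555 CPM against 217, 229 and 356 CPM.

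DNA methylation factors had 1 of 11 called higher and 4 lower (median -0.46, or 0.17 under quantile normalization and 0.63 without the 4-cell gradient A). Trim28, the corepressor that guards imprints, rose from 47.6, 39.9 and 66.8 CPM to 741, 580 and 320 CPM (change 3.33, SE 0.58, limma adjusted p 0.00837). Uhrf1, which recruits maintenance methyltransferase, went from 352, 520 and 267 CPM to 0.314, 1.80 and 33.6 CPM (change -6.19, SE 1.33, limma adjusted p 0.0151) and lost its call without any 1 of the 2-cell gradients. Dppa3, a maternal protector against demethylation, was not called, with 1472, 1577 and 2037 CPM against 2817, 1866 and 4149 CPM. Histone variants and linkers had 6 of 23 higher and 4 lower, where 11.6% and 17.5% of all genes were called. H2ax, the variant phosphorylated at DNA breaks, rose from 44.6, 54.1 and 13.8 CPM to 367, 854 and 626 CPM (change 4.12, SE 0.74, limma adjusted p 0.00878). H1f8, the oocyte linker histone, fell from 149, 483 and 478 CPM to 0.0519, 0 and 3.64 CPM (change -7.59, SE 1.11, limma adjusted p 0.0065). DNA replication genes had 2 of 36 higher and 4 lower, with Pole, the leading-strand polymerase, up by 5.58 and Rpa1, of the single-strand binding complex, from 64.4, 52.5 and 115 CPM to the floor, at least 148-fold lower.

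Genes of metabolism changed in single members. Among 14 tested one-carbon genes 2 rose and 2 fell. Pemt, which methylates phosphatidylethanolamine, rose from 150, 220 and 134 CPM to 3315, 3140 and 2217 CPM (change 4.11, SE 0.33, limma adjusted p 0.00201), and Mthfd2, the mitochondrial folate enzyme, fell from 323, 849 and 270 CPM to 0.026, 0.135 and 18.5 CPM (change -7.21, SE 1.37, limma adjusted p 0.0101). Of 20 glycolysis and lactate genes 5 fell and none rose. Ldhb, the lactate dehydrogenase subunit of the oocyte, fell from 1501, 3511 and 2347 CPM to 952, 744 and 703 CPM (change -1.54, SE 0.33, limma adjusted p 0.0152), with the call lost without the 2-cell gradient C or the 4-cell gradient B or C. In whole embryos it fell from 1943 ± 623 to 39.5 ± 13.4 CPM (SD, n = 4), and the heavy change lay above the transcriptome change by 4.06 (limma adjusted p 0.000119). Cholesterol synthesis genes had 1 of 18 higher and 4 lower, and tubulins 1 of 14 higher and 4 lower. Tubb3, a beta tubulin, fell from 557, 449 and 284 CPM to 0.0815, 2.51 and 0.843 CPM (change -7.76, SE 0.94, limma adjusted p 0.00526). Heat shock chaperones had 2 higher and 4 lower of 21, stress response genes 2 and 1 of 20, and importins 2 and 4 of 28, where 11.6% and 17.5% of all genes were called. Without the 4-cell gradient A the stress response genes had 1 higher and none lower, and the cholesterol genes none higher and 3 lower.

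Noncoding RNAs, among them several snoRNA host genes, were followed as transcripts without an annotated protein. Whether they carried ribosomes was not tested. Of 15 tested 4 were called higher and none lower, where 11.6% and 17.5% of all genes were called. Snhg1, a snoRNA host gene, rose from 0.494, 9.09 and 3.67 CPM to 163, 79.0 and 105 CPM (change 4.75, SE 1.09, limma adjusted p 0.0186), with its call lost without the 2-cell gradient C. The 18S ribosomal RNA (Rn18s) was not called, with 38490, 29785 and 35663 CPM in 2-cell and 88008, 31317 and 23425 CPM in 4-cell gradients, in libraries made from poly(A) RNA per the labels.

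Heavy and whole-embryo changes were then set side by side, to ask which transcripts moved differently in the heavy fractions than in whole embryos. The light fractions have no part in this comparison, so a difference can be shared by both sides of the gradient. Of 8222 genes tested in both, 2150 were called in both. The changes had the same sign in 890 that rose and 1244 that fell, and opposite signs in the rest, 2 higher and 14 lower in the heavy fractions. Another 254 genes were called in the heavy fractions alone. The 2 kinds of library share no sample. Tested as an interaction over 13895 genes, the heavy change was above the transcriptome change for 1034 genes (7.44%) and below it for 1089 (7.84%). With a filter of 10 CPM these were 543 and 830, under quantile normalization 934 and 806, and without the 4-cell gradient A 1435 and 1211, so which direction had more calls depended on the setting. The interaction test pools the spread of gradients with that of whole-embryo libraries. Its SE was 0.57 for Uqcrc1 and Sdha, against 0.88 and 0.95 for the heavy change alone, but 0.30 against 0.25 for Rpl41. Its adjusted p-values, here and above, can thus be too small for the spread between gradients.

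**Figure D4:**
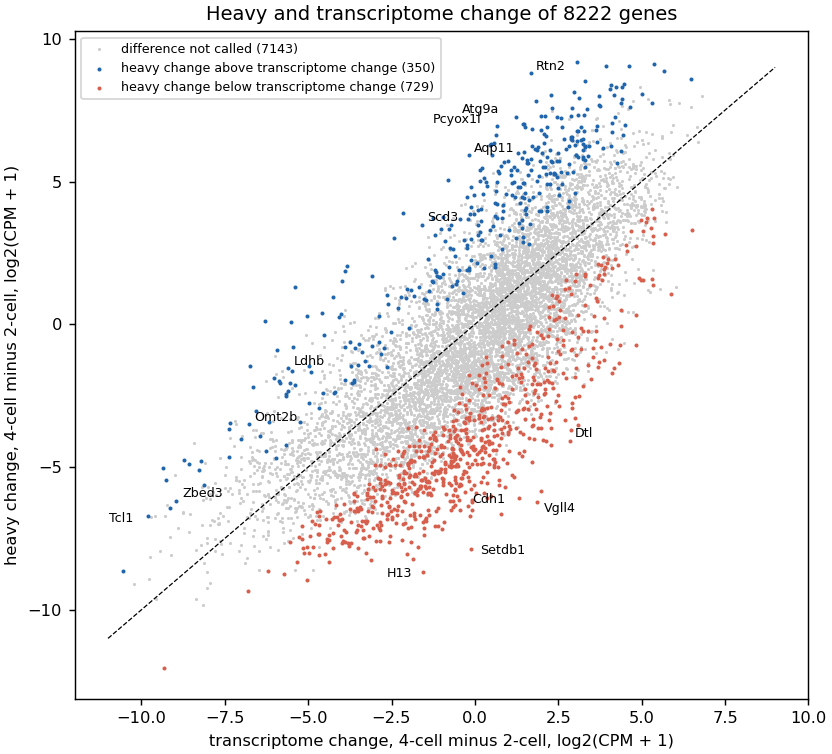
Heavy change against transcriptome change, both 4-cell minus 2-cell in log2(CPM + 1), for the 8222 genes tested in both; the dashed line marks equal changes. Blue genes (350) were called above and red genes (729) below their transcriptome change in the interaction test; Rtn2 lies far above the line, and Setdb1 and H13 lie far below it.

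Rtn2 is a reticulon of the endoplasmic reticulum. It had the largest excess of heavy over transcriptome change among genes with a heavy mean of at least 100 CPM in 1 stage. Its 2-cell gradients held 0.0511, 2.62 and 0.19 CPM and its 4-cell gradients 362, 1131 and 943 CPM, while whole embryos went from 10.8 ± 3.62 to 37.0 ± 13.4 CPM (SD, n = 4). The excess was 7.11 (limma adjusted p 9.68e-05). The light mean of Rtn2 rose as well, from 2.78 to 1020 CPM, and its heavy-to-light change was 0.35 and not called. Atg9a, the lipid scramblase of autophagosomes, went from 4.71, 2.53 and 0.857 CPM to 255, 592 and 884 CPM, and from 2.62 ± 0.656 to 7.80 ± 2.60 CPM in whole embryos (excess 6.01, limma adjusted p 0.000235). Pcyox1l, a relative of a lysosomal oxidase, rose from the floor to 220, 186 and 44.5 CPM with 0.686 ± 0.622 and 1.60 ± 0.579 CPM in whole embryos (excess 6.27, limma adjusted p 0.000129). Pttg1ip, which binds securin, rose to 1428, 1925 and 4049 CPM from 48.8, 0.0356 and 0.0638 CPM (excess 6.14, limma adjusted p 0.0115). Aqp11, an aquaporin, had 234, 146 and 190 CPM against 0, 29.1 and 0 CPM, with no call in whole embryos at 34.4 ± 4.35 and 31.4 ± 9.49 CPM (excess 6.09, limma adjusted p 0.00753). Its heavy call held only without the 2-cell gradient B. Against 11.6% and 17.5% of all genes, compaction and polarity genes had 2 of 24 called higher and 5 lower in the heavy fractions (median -0.81). Without the 4-cell gradient A these were 3 and 4 (median -0.35), and the median was -0.50 under quantile normalization. Cldn4, a tight junction claudin and their largest rise, went from the floor to 232, 261 and 214 CPM and from 0.578 ± 0.199 to 4.71 ± 1.11 CPM in whole embryos (excess 5.98, limma adjusted p 1.42e-05).

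Setdb1, a histone H3 lysine 9 methyltransferase, had the largest shortfall by the same rule. It had 532, 131 and 297 CPM in 2-cell and 0.498, 0.0646 and 0.0268 CPM in 4-cell gradients, while whole embryos held 47.5 ± 9.70 and 42.9 ± 3.63 CPM (SD, n = 4). The shortfall was -7.74 (limma adjusted p 1.38e-05), and no gradient of one stage came near the other stage. H13, a signal peptide peptidase, had 626, 861 and 601 CPM against 0.526, 0.101 and 1.89 CPM (shortfall -7.12, limma adjusted p 1.81e-05), with a whole-embryo fall from 67.4 ± 26.5 to 21.7 ± 4.61 CPM. H1f1, a linker histone, had 613, 443 and 721 CPM against 4.06, 37.1 and 0.0133 CPM (shortfall -7.43, limma adjusted p 0.00152) and no call in whole embryos, with the heavy call lost without the 2-cell gradient A or C. Dtl, a ubiquitin ligase adaptor of S phase, differed widely between 4-cell gradients, with 0.416, 221 and 0.864 CPM against 71.3, 214 and 178 CPM in 2-cell gradients (shortfall -6.92, limma adjusted p 0.0216). Its heavy change alone was not called.

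Opposite calls were few. The pair called higher in the heavy fractions and lower in whole embryos were Scd3, a fatty acid desaturase with near-identical relatives, and Apod, a lipid carrier. Scd3 had 0.0795, 0.411 and 0.0478 CPM in 2-cell and 9.86, 12 and 14.5 CPM in 4-cell gradients, both low, and the call of Apod held only without the 4-cell gradient A. Of the 14 in the other direction, Cdh1, which encodes E-cadherin, the adhesion protein of compaction, had 134, 87.2 and 175 CPM in 2-cell and 0.0561, 3.49 and 0.467 CPM in 4-cell gradients (change -6.07, SE 1.06, limma adjusted p 0.00833). In whole embryos it rose from 17.6 ± 4.69 to 45.6 ± 10.0 CPM (SD, n = 4; shortfall -7.40, limma adjusted p 3.92e-05). Vgll4, a Tead cofactor, had 76.3, 111 and 65.2 CPM against the floor, at least 161-fold lower, and rose from 4.89 ± 1.40 to 21.0 ± 8.53 CPM in whole embryos. Dhx29, a helicase of translation initiation, had 63.3, 51.8 and 83.8 CPM against 0, 0.0171 and 0.458 CPM, and rose from 20.5 ± 3.95 to 84.3 ± 18.9 CPM in whole embryos. Ncapd3, a condensin subunit, had 199, 21.4 and 34.2 CPM against 1.20, 0.0391 and 0 CPM.

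Single fractions carried much of some heavy means. Cdh1 reached 1 CPM in 7 of 15 heavy libraries of the 2-cell stage and 2 of 15 of the 4-cell stage. In the 2-cell gradient A it had 411 CPM in fraction 8 and 257 CPM in fraction 10, and at most 0.36 CPM in the other heavy fractions. Gradient B had 423 CPM in fraction 8 and 12.4 CPM in fraction 9, and gradient C had 430, 43.3 and 403 CPM in fractions 6, 7 and 10, with under 1 CPM elsewhere. Setdb1 reached 1 CPM in 13 of 15 libraries of the 2-cell and 1 of 15 of the 4-cell stage, Rtn2 in 1 and 14, and Cldn4 in 0 and 15. Tcl1 and Rpl41 had no such gaps in the stage where they were high, Tcl1 with 13657 to 49474 CPM in every 2-cell heavy fraction and Rpl41 with 13388 to 38215 CPM in every 4-cell heavy fraction.

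**Figure D5:**
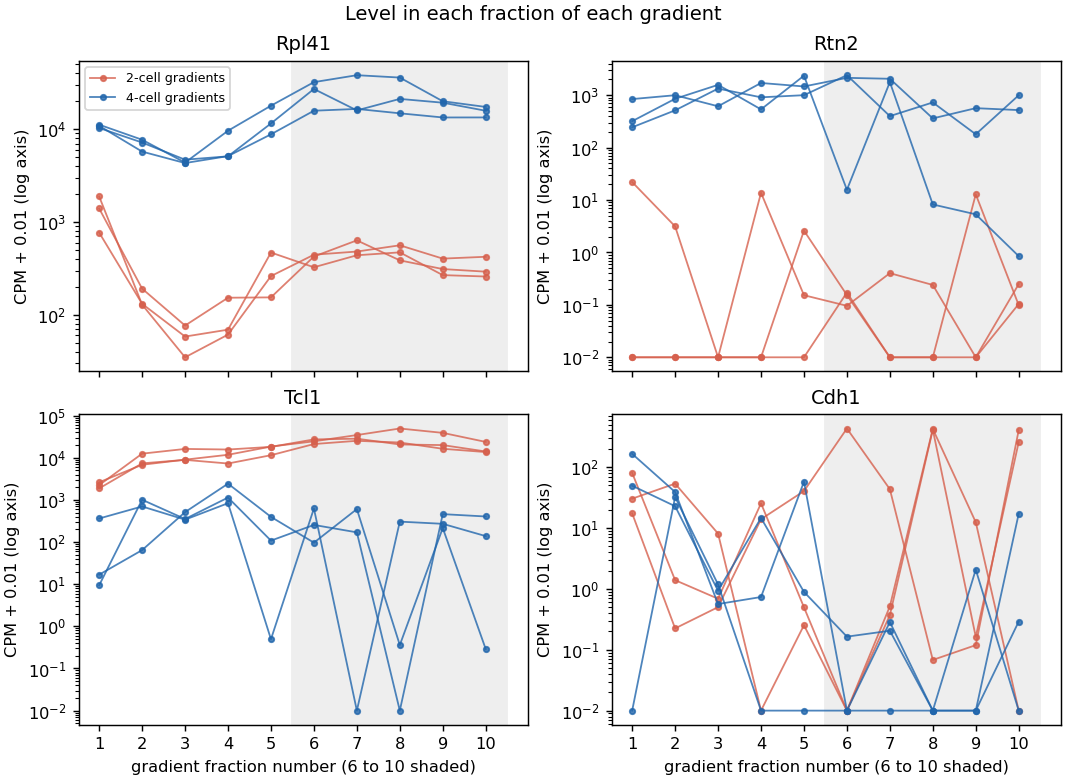
CPM + 0.01 on a log axis in each of the 10 fractions of each 2-cell (red) and 4-cell (blue) gradient for Rpl41, Rtn2, Tcl1 and Cdh1, with the heavy fractions shaded. Rpl41 and Tcl1 keep the stages apart in every fraction, while Cdh1 jumps between 0 and 430 CPM among the 2-cell heavy fractions.

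Whether the place of transcripts along the gradient differed between the stages was tested as the change of the heavy mean relative to the light mean, fractions 1 to 5, of the same gradient. Of 11190 genes none was called by limma, with 1381 at an unadjusted p under 0.05. Fraction 1, which weighs as much as the others in the light mean, held only 0.141 to 0.667 M reads per gradient. In the 4-cell gradient C it had 165 CPM of Cdh1, against at most 57.5 CPM in the other light fractions. Light means of the genes shown above differed between the stages to unequal degrees. Rpl41 had light means of 389 and 8302 CPM in 2-cell and 4-cell gradients, Tcl1 10027 and 551 CPM, and Rtn2 2.78 and 1020 CPM. Cdh1 had 18.2 and 25.6 CPM there, Setdb1 39.0 and 17.6 CPM, and Eif5a 294 and 2472 CPM. Among other genes whose heavy change fell short of the whole embryo, light means were 76.7 and 7.12 CPM for Sdha, 67.7 and 0.285 CPM for Vgll4, 1939 and 164 CPM for H13, and 39.7 and 24.8 CPM for Dhx29. The median of the heavy-to-light change was 0.19 for ribosomal proteins, 0.86 for respiratory subunits and -3.62 for the Obox and Tcl1 families, against -0.34 over all genes.

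Markers were used to check the stages and to look for other cells. The 2-cell and oocyte markers belong to the lists of 2-cell transient and of oocyte growth and zona genes above, so they add no separate evidence. All 10 tested 2-cell markers had a negative change. Oocyte markers carried over had 4 of 7 called lower, against 17.5% of all genes tested. Their sums were 3510, 4343 and 4724 CPM in 2-cell and 186, 575 and 423 CPM in 4-cell gradients, where Bmp15, an oocyte growth factor, remained at 0.25, 39.4 and 43.0 CPM. Among the 6 cumulus and granulosa markers measured, Amhr2 alone was tested. Amhr2, a hormone receptor, had 0, 31.3 and 47.3 CPM in 2-cell and 300, 697 and 327 CPM in 4-cell gradients, a call that held only without the 2-cell gradient A. Inha and Lhcgr of the same cells were at 0 in all 6 gradients, and Fshr, Star and Cyp19a1 had at most 0.0816 CPM in any 4-cell gradient (Star). Cyp19a1, the aromatase, went the other way from Amhr2, with 13.3, 0 and 0.0319 CPM in 2-cell gradients and 0 in all 4-cell gradients. The 6 markers summed to 13.3, 32.5 and 47.3 CPM in 2-cell and 299.6, 697.1 and 326.7 CPM in 4-cell gradients. The sperm gene Prm2 fell from 9.25, 9.35 and 2.57 CPM to 0 in all gradients, and the blood gene Hba-a1 had 65.5, 150 and 123 CPM against 101, 174 and 88.8 CPM and was not called. Whether RNA of such cells had a part in any result was not tested.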

How the data were processed

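Poly(A) RNA from gradient fractions and whole embryos was made into libraries with the Smart-seq v4 and Nextera XT kits, per the labels' protocols. The submitters' processing notes name Trim Galore 0.6.7, FastQC, HISAT2 2.2.1, featureCounts 2.0.1, edgeR and GRCm39, with no role or order. The authors deposited CPM per gene symbol. In 9 deposited columns the values sum past what CPM allows, and these were handled as a signal scaled like CPM. The table repeats some genes: 159 symbols fall in 76 groups with identical values in every library, and 1 symbol of each group was kept, 15771 of 15854 in all. After that no library summed to more than 989020 CPM. Whole reads were taken as recovered from the steps of the CPM in 271 of 272 libraries, where 100% of values came out whole within 0.05 of a read. In fraction 7 of the 2-cell gradient B the steps fit whole reads as well, but 1 read is worth 0.101 CPM there, close to a step that decimal rounding could also give. It was therefore kept out of the count models, while its reads are counted in the depth.

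Heavy means were tested as log2(CPM + 1) with limma 3.58.1 in R 4.3.3, with a trend, 3 gradients against 3, for genes with at least 1 CPM in 3 of 6 gradients. The transcriptome fit (4 against 4), the interaction of both and the heavy-to-light difference used limma too. edgeR 4.0.16 and DESeq2 1.42.0 on recovered reads were alternatives. A gene at the floor had at most 3 reads in every gradient of a stage. Fold bounds divide the mean of the 3 gradients of the other stage by that floor, 0.0864 CPM in 2-cell and 0.523 CPM in 4-cell gradients. They bound the ratio of stage means, not that of single gradients. Reads carry no molecular identifiers, so floors cover counting error only. Transcriptome columns of the 2-cell stage are lettered E to H, which the labels do not use, so they were taken as members of the group. Named genes were the 8 largest rises and falls called by limma and edgeR with at least 100 CPM in 1 stage, the called extremes and the most abundant member of each list, the 5 largest interaction calls each way, and the 4 largest calls of opposite sign. Of these 107 genes not every one is described. Obox6, Padi6, Tle6, Khdc3, Pou5f1 and the cell type markers other than Amhr2, Prm2, Hba-a1 and Bmp15 stand outside that rule. Members and lists were chosen with earlier results of these data known.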

Additional observations from a re-analysis of the deposited data

Results flagged for a closer look

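In 3 of 60 groups of 4 transcriptome libraries examined for the genes named by size of change, 1 library lay far from the others by Dixon's criterion, which compares the gap to the nearest library with the group's range. Chance gives about 1 in 20 groups. The 2-cell library E had 994.886 CPM of Itga9, against 609, 618 and 662 CPM in the other libraries (gap over range 0.864). The same library had 106.829 CPM of H13, against 49.5, 55.5 and 57.7 CPM (0.857). The 4-cell library B had 387.899 CPM of Dtl, against 293, 296 and 297 CPM (0.955).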

How the results depend on the processing

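The count of 2446 heavy calls was 1257 with no filter on low values, 1126 in edgeR (465 higher and 661 lower), 3363 in DESeq2 (1517 and 1846) and 5495 with all 8 stages in the fit. Leaving out 1 gradient gave 1615 to 2228 calls, with 1615 without the 2-cell gradient C and 1621 without the 4-cell gradient B. The 2123 interaction calls became 1373 with a filter of 10 CPM and 2492 to 2910 with a gradient left out. Transcriptome calls stayed between 9138 and 9182 with a library left out. The heavy change of Eef2 reversed to -0.12 as a median over fractions. For edgeR, the median and the gradients left out the cause was not tested. Of 95 named genes called, 60 held with each gradient left out in turn, and edgeR called 53.

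Deviations from the stage mean had r of 0.022, -0.001 and -0.011 between same-lettered gradients and -0.031 to 0.038 between others. The labels do not say whether a letter is a batch, and these values cannot settle it. With the replicate block 1808 genes were called in the heavy fractions, and heavy-to-light calls were 0 with and without it. The shallow 4-cell gradient A and the gaps between fractions limit what can be said of genes at low levels.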
